A study of Mus musculus with 88 samples.

Results

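Wild-type (WT) mouse embryonic stem cells were compared between 5 h and 24 h of induction toward anterior primitive streak, the first step of a monolayer protocol for endoderm. The members were the libraries that the labels place in the endoderm series with a wild type genotype at these times, 2 at 5 h and 2 at 24 h, which makes 4 of the 88 samples of the study. The study used WT cells and cells that lack a subunit of Polycomb repressive complex 2 (PRC2), a histone methyltransferase that keeps developmental genes silent, to follow the exit from pluripotency. The cells were of the E14 line (129/Ola background), had been grown in serum with LIF, and carried no allele that targets PRC2. At both times they were in the same medium with Activin A (a TGFβ ligand that acts through the Nodal receptors), CHIR99021 (an inhibitor of GSK3 that stabilizes β-catenin), and FGF2. Only cells kept for a further day received the medium for definitive endoderm, so the 24 h cells are streak-stage cells by protocol, although the labels call the series endoderm. For comparison, WT cells of the endoderm series were read undifferentiated and at 48 h. WT cells of the mesoderm series (Activin A, BMP4, CHIR99021, and FGF2) were read at 5 h and 24 h. By the paper's methods their medium also had a higher dose of CHIR99021 and another dose of Activin A. Mtf2 null and Jarid2 null cells were read at 5 h and 24 h of the endoderm series, with 2 libraries in each group. The paper matches these null cells to other wild-type lines, while the WT cells here are E14. Genotype and cell line therefore cannot be told apart where null cells are compared with WT cells. The study describes the duplicates of its bulk RNA-seq as technical, so p-values measure the spread between libraries, which may be technical.

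In the gastrulating mouse embryo the primitive streak forms where Nodal and Wnt signals meet. Nodal and Activin act through SMAD2 and SMAD3 with partners such as FOXH1, Wnt acts through β-catenin and the TCF/LEF factors, and FGF acts through ERK. Cells that receive these signals first express streak genes such as T (Brachyury), Mixl1, and Eomes, and those of the anterior streak go on to express Foxa2, Sox17, and Gsc as they become definitive endoderm.

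RNA was depleted of ribosomal RNA, sequenced as read pairs, and estimated per gene. The 4 libraries held 11900497 to 14776351 counts, and levels are given in CPM, the count per 1000000 counts of the effective library size. At this depth 3 counts correspond to 0.191 to 0.251 CPM, which is taken as the limit that a count of 0 allows (counting error only). One annotated RNA, Gm26917, took 13.6% to 15.9% of the counts in each library. Mtf2 stood at 36.8 and 36.8 CPM at 5 h and 34.6 and 36.8 CPM at 24 h in the Mtf2 null libraries, against 334 and 332 CPM at 5 h and 275 and 307 CPM at 24 h in the WT libraries. Jarid2 stood at 583 and 609 CPM at 5 h and 339 and 335 CPM at 24 h in WT cells. Where the label was Jarid2 null it stood at 548 and 571 CPM at 5 h and 288 and 283 CPM at 24 h, so its transcript level did not check those labels, which are used as given.

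Of 19261 genes tested, 481 (2.5%) were called, which required more than a 2-fold change together with an adjusted p below 0.001 in edgeR's quasi-likelihood test. Of these, 339 (1.76% of all tested) were higher at 24 h and 142 (0.737%) were lower. The median log2 fold change over all genes tested was 0.0052, so the list medians given below can be read against a value near 0. Counts of called list members are to be read against the shares of all genes called. The libraries of the 2 times did not overlap in 11936 of the genes tested (62.0%), and in all 481 called genes. Among the called genes the median log2 fold change was 1.40 for those higher at 24 h and -1.50 for those lower, and 50 and 33 of them passed a log2 fold change of 2. Most called genes were well expressed, since 297 of those higher had a mean of at least 5 CPM at 24 h and 116 of those lower had that level at 5 h. Protein-coding genes made up 314 of those higher and 134 of those lower, and long intergenic noncoding RNAs 14 and 6. When 1 of the 4 libraries was left out, fewer genes were called: 228 without 5 h replicate 1, 261 without 5 h replicate 2, 299 without 24 h replicate 1, and 302 without 24 h replicate 2. In bulk RNA, fewer cells of a type and less RNA per cell cannot be told apart.

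**Figure D1:**
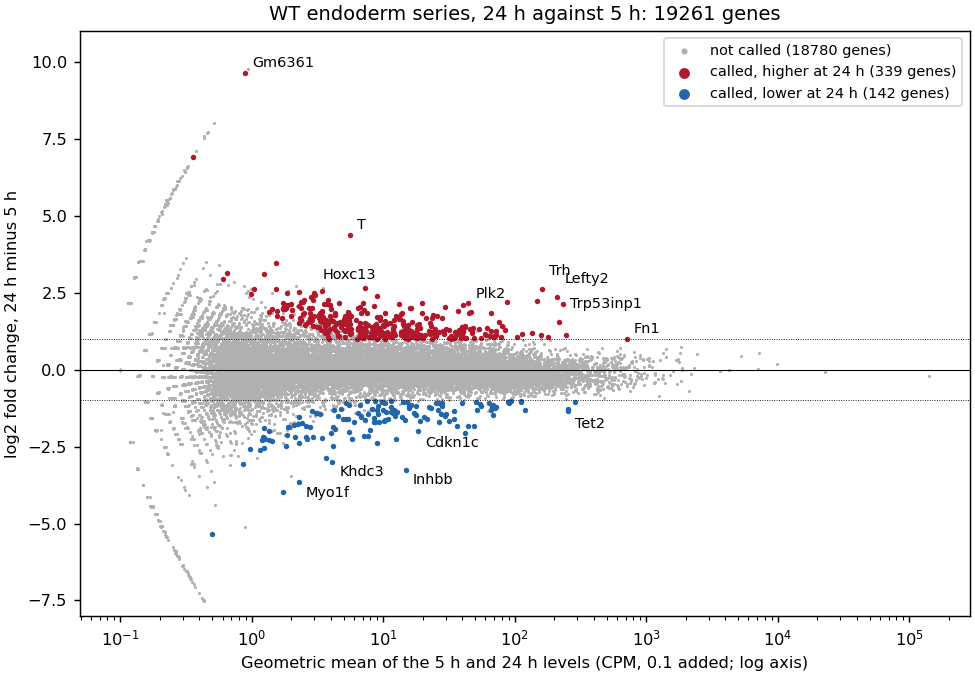
Each point is 1 of the 19261 genes tested in the WT endoderm series, placed by the geometric mean of its 5 h and 24 h levels in CPM (0.1 added, log axis) and by its log2 fold change at 24 h against 5 h. The 339 genes called higher are red, the 142 called lower are blue, and dotted lines mark a log2 fold change of 1 in either direction. T, Lefty2, Trh, and Trp53inp1 stand among the called genes that were higher, Inhbb, Khdc3, and Myo1f among those that were lower, and the arcs at the far left are genes listed at 0 in the libraries of 1 of the 2 times.

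The 2 of 16 tested primitive streak regulators that rose by the threshold were T and Sp5, both known targets of Wnt signaling. None fell, and 1.76% of all genes tested were called higher. The list held 20 genes, and the median log2 fold change of those tested was 0.42. T (ENSMUSG00000062327, chromosome 17 from 8434423 to 8442496 of GRCm38), the T-box factor that marks the streak, had 1.24 and 1.09 CPM at 5 h and 27.0 and 22.3 CPM at 24 h. Both 24 h libraries lay far above both 5 h libraries, a 21.2-fold rise of the mean (log2 fold change 4.39 ± 0.31, adjusted p = 5.7e-09, SE here and below). The level was near 0 on either side of this window, with 0.0947 and 0.281 CPM in undifferentiated cells and 0 and 0.0942 CPM at 48 h.

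Sp5 (ENSMUSG00000075304, chromosome 2 from 70474923 to 70477729), a zinc finger repressor that responds to Wnt, went from 1.93 and 1.42 CPM to 7.56 and 8.82 CPM, with the 2 times well apart (log2 fold change 2.28 ± 0.38, adjusted p = 3.3e-04). Undifferentiated cells had 0.379 and 0.562 CPM, and no read was counted in either 48 h library. T kept its call when any 1 of the 4 libraries was left out. Sp5 lost its call without any 1 of the 4 libraries (adjusted p up to 0.012). The other streak genes did not pass the threshold. Eomes, the T-box factor that specifies endoderm and early mesoderm, had 8.82 and 7.24 CPM at 5 h and 9.89 and 11.2 CPM at 24 h (adjusted p = 0.13), after 2.80 and 2.49 CPM in undifferentiated cells. Mixl1, a homeodomain factor of the streak, stayed under 1 CPM in all 4 libraries (log2 fold change 0.51, adjusted p = 0.56), as did Fgf8 (-0.60, adjusted p = 0.69). Tbx6, Msgn1, Mesp1, Cdx4, and Hoxb1, which mark nascent mesoderm or later posterior identity, were likewise under 1 CPM throughout.

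The promoters of T, Sp5, and Otx2 (a gene of the anterior streak list that also rose, described below) are shown because these genes rose. The medium, which stabilizes β-catenin and activates SMAD2 and SMAD3, was the same at both times. No promoter sequence was at hand for Lefty2, a Nodal pathway gene that also rose (below). Each sequence spans 250 bases before to 50 bases after an annotated start in RefSeq on GRCm38.p6 and reads 5′ to 3′ on the strand of the gene. Capitals mark a match, on either strand, to CTTTGA (TCF/LEF), AATNCACA (FOXH1), CAGACA (SMAD), or AGGTGTGA (T-box). Matches to the site AGATAA of GATA factors, to ATTGTT, a site of SOX factors, and to TAATCC, a site of some homeodomain factors, are in capitals too.
T, chr17:8434173-8434472, plus strand: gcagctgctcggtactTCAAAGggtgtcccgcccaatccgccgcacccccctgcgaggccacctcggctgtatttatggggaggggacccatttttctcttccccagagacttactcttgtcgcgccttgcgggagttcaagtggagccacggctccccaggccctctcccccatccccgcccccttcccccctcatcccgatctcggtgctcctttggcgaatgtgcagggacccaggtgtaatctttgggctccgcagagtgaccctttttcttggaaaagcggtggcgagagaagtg
Sp5, chr2:70474673-70474972, plus strand: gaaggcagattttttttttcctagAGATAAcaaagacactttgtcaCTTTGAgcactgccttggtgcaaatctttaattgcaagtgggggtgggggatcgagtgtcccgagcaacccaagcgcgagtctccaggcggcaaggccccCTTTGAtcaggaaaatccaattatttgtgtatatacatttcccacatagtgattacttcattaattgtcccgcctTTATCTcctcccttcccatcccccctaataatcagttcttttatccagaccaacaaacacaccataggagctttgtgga
Otx2, start 3 of 4, chr14:48665060-48665359, minus strand: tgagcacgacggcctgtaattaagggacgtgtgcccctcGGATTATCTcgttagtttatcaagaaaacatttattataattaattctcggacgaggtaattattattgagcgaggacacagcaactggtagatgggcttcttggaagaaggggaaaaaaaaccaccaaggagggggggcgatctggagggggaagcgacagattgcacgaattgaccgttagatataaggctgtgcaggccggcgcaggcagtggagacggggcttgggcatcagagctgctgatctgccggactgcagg
The T window held 1 TCF/LEF match, on the opposite strand and starting 234 bases before the annotated start. The Sp5 window held 2 TCF/LEF matches, starting 204 and 104 bases before the start, and 2 GATA matches. The Otx2 window shown held 1 GATA and 1 homeodomain match, which overlap by 3 bases, while of its other 3 starts 1 had a GATA match and 2 had no match to any of the 7 motifs. Over all 32851 promoter windows, 16.0% had a TCF/LEF match, 11.2% a GATA match, and 7.06% a homeodomain match. The share was 21.0% for a SMAD match, 10.7% for a SOX match, 3.60% for a FOXH1 match, and 1.28% for a T-box match. A match is a string of letters and was not tested for binding.

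Genes that define definitive endoderm were at or near 0 at 24 h, and so the label endoderm was not borne out by its defining markers at this time. Foxa2, the forkhead factor of endoderm and axial mesoderm, had 0.849 and 0.335 CPM at 5 h and 0.0727 and 0 CPM at 24 h (log2 fold change -3.80, adjusted p = 0.023, not called). Sox17, the SRY-box factor required for definitive endoderm, had 0.309 and 0.754 CPM at 5 h and 0.363 and 0.447 CPM at 24 h (adjusted p = 0.81). These values rest on 0 to 11 counts in each library. Cxcr4, a chemokine receptor used to sort definitive endoderm, had 1.00 and 0.754 CPM at 5 h and 1.96 and 0.767 CPM at 24 h, and the 2 times overlapped (adjusted p = 0.55). Gsc and Lhx1, homeodomain factors of the anterior streak, did not exceed 0.16 CPM, and Cer1, a secreted Nodal and Wnt antagonist of anterior endoderm, had no count in any of the 4 libraries. At 48 h, Foxa2 had 0.346 and 0 CPM and Sox17 0.173 and 0.377 CPM.

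Of the whole list of anterior streak and definitive endoderm genes, 11 of 24 were under 1 CPM in all 4 libraries. Of 20 tested, 3 rose and 1 fell, against 2.5% of all genes called, with a median log2 fold change of 0.02. Trh (ENSMUSG00000005892, chromosome 6 from 92242061 to 92244650), which encodes the precursor of thyrotropin-releasing hormone, gave the largest rise, from 61.7 and 68.5 CPM to 395 and 403 CPM (log2 fold change 2.61 ± 0.18, adjusted p = 5.0e-09). The 24 h libraries were thus about equal to each other and far above the 5 h libraries. Trh made up most of the summed level of the list, which was 121 and 131 CPM at 5 h and 475 and 492 CPM at 24 h. In undifferentiated cells Trh had 156 and 139 CPM, above its 5 h level. Otx2, a homeodomain factor of epiblast and anterior streak, went from 3.71 and 4.77 CPM to 10.8 and 13.2 CPM (log2 fold change 1.51 ± 0.22, adjusted p = 6.5e-05) and stood at 82.0 and 55.3 CPM at 48 h. Apela, which encodes a peptide ligand of the apelin receptor, went from 13.3 and 13.7 CPM to 24.9 and 30.9 CPM (log2 fold change 1.05 ± 0.15, adjusted p = 5.1e-05). Gata6, a zinc finger factor of primitive and definitive endoderm, fell from 3.55 and 3.43 CPM to 0.654 and 1.21 CPM (log2 fold change -1.87 ± 0.28, adjusted p = 7.2e-05). Trh kept its call when any 1 of the 4 libraries was left out. Otx2 lost its call without 5 h replicate 1 or 24 h replicate 2 (adjusted p up to 0.0048). Apela lost its call without 5 h replicate 1, 5 h replicate 2, or 24 h replicate 2 (adjusted p up to 0.0028, log2 fold change down to 0.89). Gata6 lost its call without 5 h replicate 1, 5 h replicate 2, or 24 h replicate 1 (adjusted p up to 0.0037). The Gata6 call was also lost when only the 4 libraries of the comparison were fitted (adjusted p = 0.0019) and when the 8 WT libraries were (adjusted p = 0.0059).

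**Figure D2:**
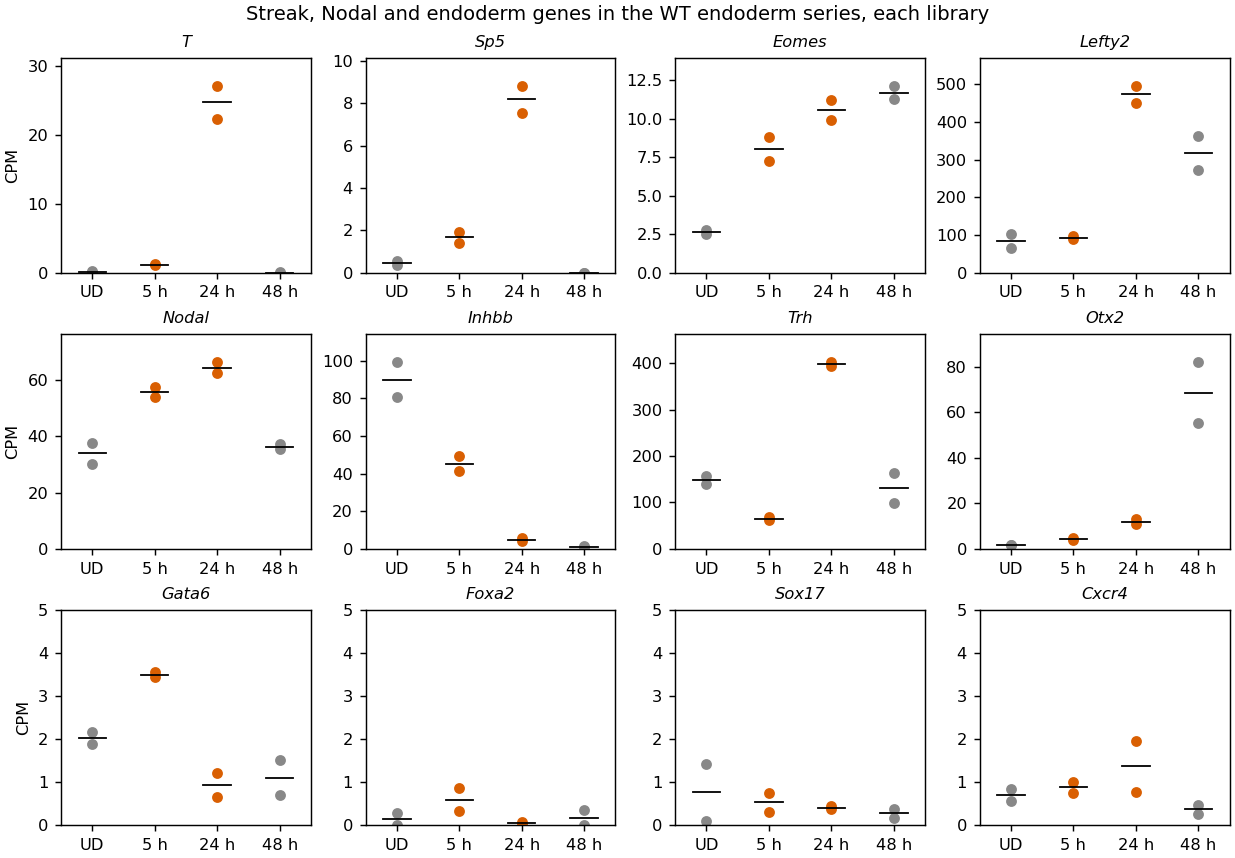
Level in CPM (linear axis from 0, scaled per panel and to at least 5 CPM) of 12 genes in each WT library of the endoderm series, undifferentiated (UD) and at 5 h, 24 h, and 48 h. Points are the 2 libraries of a time, bars their mean, and the 2 times compared are orange. T and Sp5 are high only at 24 h among these 4 times, Lefty2 and Trh are highest at 24 h, Inhbb is lower at each later time, and Foxa2, Sox17, and Cxcr4 stay under 2 CPM in every library.

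Within the Nodal and Activin pathway 1 of 22 genes tested rose and 1 fell, against 2.5% of all genes called. The median log2 fold change was 0.14. Lefty2 (ENSMUSG00000066652, chromosome 1 from 180893108 to 180899103), a secreted inhibitor of Nodal that is itself induced by Nodal signaling, had 89.4 and 97.0 CPM at 5 h and 452 and 496 CPM at 24 h. Its 24 h libraries lay 5.08-fold above the 5 h libraries on average (log2 fold change 2.35 ± 0.20, adjusted p = 7.1e-08), and the level was 363 and 273 CPM at 48 h. Its paralog Lefty1 had 71.1 and 75.7 CPM at 5 h and 119 and 125 CPM at 24 h, apart between the times but short of the threshold (log2 fold change 0.73, adjusted p = 0.029). The 2 genes are close paralogs, so the division of reads between them by the counting is uncertain.

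The ligand gene that fell was Inhbb (ENSMUSG00000037035, chromosome 1 from 119415465 to 119422248), which encodes the βB chain of activin and inhibin. It had 41.4 and 49.3 CPM at 5 h and 5.60 and 3.96 CPM at 24 h, so both 24 h libraries were under 6 CPM and both 5 h libraries above 41 CPM (log2 fold change -3.25 ± 0.23, adjusted p = 6.9e-09). Undifferentiated cells had 99.3 and 80.5 CPM, and 48 h cells had 0.780 and 1.41 CPM. Nodal itself had 54.0 and 57.7 CPM at 5 h and 62.4 and 66.4 CPM at 24 h (adjusted p = 0.23). The receptors Acvr1b, Acvr2a, and Acvr2b and the effectors Smad2, Smad3, and Smad4 had log2 fold changes between -0.12 and 0.40, and none was called. Fst, which encodes the activin-binding protein follistatin, went from 3.68 and 4.41 CPM to 10.4 and 11.9 CPM and missed the threshold narrowly (log2 fold change 1.46, adjusted p = 0.0012). Foxh1, Smad7, and Skil were not called either. Lefty2 and Inhbb kept their calls when any 1 of the 4 libraries was left out.

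In the Wnt pathway list, 1 of 29 genes tested rose (Sp5, above) and 1 fell, against 2.5% of all genes called. The median log2 fold change was 0.16. Tcf7l1, whose product represses Wnt targets and pluripotency genes in embryonic stem cells, fell from 83.8 and 78.2 CPM to 34.4 and 30.9 CPM (log2 fold change -1.31 ± 0.16, adjusted p = 5.8e-06). Axin2, the scaffold gene that is a common readout of β-catenin activity, had 49.6 and 50.4 CPM at 5 h and 88.4 and 78.6 CPM at 24 h (log2 fold change 0.74, adjusted p = 0.0028). Before induction it had 13.8 and 8.06 CPM and at 48 h 8.58 and 5.27 CPM, so levels at 5 h and 24 h both lay above those at the outer times. Other feedback genes gave positive values without a call, among them Nkd1 (1.17, adjusted p = 0.0028), Rnf43 (1.77, adjusted p = 0.029), and Lef1 (1.24, adjusted p = 0.054). Of the 29 genes, 21 had a log2 fold change above 0. Ctnnb1, which encodes β-catenin, had 539.7 and 534 CPM at 5 h and 566 and 587 CPM at 24 h (adjusted p = 0.58). Tcf7l1 kept its call when any 1 of the 4 libraries was left out.

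The FGF and ERK list had 2 of 23 genes higher and 2 lower at 24 h, against 2.5% of all genes called. Its median log2 fold change was -0.12. Spry1, a feedback inhibitor of receptor signaling, went from 9.57 and 9.30 CPM to 21.5 and 19.9 CPM (log2 fold change 1.13 ± 0.17, adjusted p = 5.6e-05), and Dusp4, a phosphatase that acts on ERK, went from 7.72 and 10.7 CPM to 19.2 and 20.6 CPM (log2 fold change 1.11 ± 0.19, adjusted p = 3.6e-04). The receptor genes Fgfr2 (log2 fold change -1.53, adjusted p = 1.6e-04) and Fgfr3 (-1.89, adjusted p = 7.6e-04) fell, both under 4 CPM at each time. Both receptor genes lost their calls without any 1 of the 4 libraries, and in the fit of the 8 WT libraries. Dusp6, a phosphatase with the same role, had 55.7 and 62.3 CPM at 5 h and 85.2 and 84.8 CPM at 24 h and was not called (log2 fold change 0.53, adjusted p = 0.0076). Fgf5, a marker of the later epiblast, was under 1 CPM in all 4 libraries and stood at 19.3 and 15.3 CPM at 48 h. Spry1 lost its call without 5 h replicate 1, 5 h replicate 2, or 24 h replicate 1 (adjusted p up to 0.0021). Dusp4 lost its call without 5 h replicate 1, 24 h replicate 1, or 24 h replicate 2 (adjusted p up to 0.02, log2 fold change down to 0.89).

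For BMP signaling, Bmp7 was the 1 gene of 20 tested that rose, against 1.76% of all genes called higher. It went from 3.09 and 2.93 CPM to 6.30 and 6.51 CPM (log2 fold change 1.09 ± 0.21, adjusted p = 8.2e-04). Its call was lost in each leave-one-out fit (adjusted p up to 0.013). DESeq2 (adjusted p = 0.0037) did not call it, nor did fits of the 4 libraries alone (adjusted p = 0.0016) or of the 8 WT libraries (adjusted p = 0.0051). Bmp2 stayed under 1 CPM (adjusted p = 0.23). Of the Notch list, 2 of 14 genes tested rose, against the same share of all genes. The receptor gene Notch3 went from 56.5 and 51.9 CPM to 139 and 126 CPM (log2 fold change 1.29 ± 0.14, adjusted p = 1.0e-06), and the ligand gene Jag2 went from 16.1 and 17.3 CPM to 38.4 and 33.6 CPM (log2 fold change 1.11 ± 0.18, adjusted p = 1.7e-04). Both were higher in each 24 h library than in each 5 h library, as was every gene called higher. The list had a median log2 fold change of 0.34. Notch3 kept its call when any 1 of the 4 libraries was left out. Jag2 lost its call without 5 h replicate 1, 5 h replicate 2, or 24 h replicate 1 (adjusted p up to 0.0063).

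The list with the highest share of calls was that of p53 targets, genes that the tumor suppressor p53 is known to induce in growth arrest and apoptosis: 10 of 17 tested rose and none fell, with a median log2 fold change of 1.08, against 1.76% of all genes called higher. The p53 list was chosen with the calls of these libraries known, so this count describes the list and is not independent evidence. Plk2 (ENSMUSG00000021701, chromosome 13 from 110395046 to 110400844), a polo-like kinase gene, had 22.3 and 19.7 CPM at 5 h and 96.1 and 90.7 CPM at 24 h (log2 fold change 2.15 ± 0.13, adjusted p = 7.4e-10). Trp53inp1, whose product promotes cell death and autophagy under stress, had 120.4 and 104 CPM at 5 h and 446 and 527 CPM at 24 h (log2 fold change 2.12 ± 0.12, adjusted p = 3.7e-10). Cdkn1a, which encodes the CDK inhibitor p21, had 23.7 and 23.7 CPM at 5 h and 91.9 and 76.6 CPM at 24 h (log2 fold change 1.83 ± 0.16, adjusted p = 1.0e-07). In each of these genes the lowest 24 h library was more than 3 times the highest 5 h library.

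Btg2, an antiproliferative gene, went from 14.9 and 14.3 CPM to 67.0 and 53.1 CPM (log2 fold change 2.04 ± 0.13, adjusted p = 1.2e-09), and Ccng1, which encodes cyclin G1, went from 131 and 125 CPM to 358 and 391 CPM (log2 fold change 1.55, adjusted p = 1.2e-09). Mdm2, the ubiquitin ligase that degrades p53, had 89.1 and 91.8 CPM at 5 h and 214 and 196 CPM at 24 h (log2 fold change 1.18, adjusted p = 1.2e-08). The BH3-only genes Pmaip1 (Noxa) and Bbc3 (Puma), which promote apoptosis, had log2 fold changes of 1.10 and 1.05, and Phlda3 and Eda2r had 1.11 and 1.08. Members that were not called were Zmat3 (0.62), Aen (0.44), Sesn2 (0.40), Perp (0.31), Gdf15 (0.23), Bax (0.16), and Sesn1, the 1 member with a negative value (-0.58, adjusted p = 0.0099). Fas was not tested, being under 1 CPM. Summed over the list, the level was 1012 and 1005 CPM at 5 h and 2168 and 2256 CPM at 24 h. The count was 10 with DESeq2, with other scaling, without a filter on low counts, and with the replicate numbers as a block, and 9 with any 1 of the 4 libraries left out. In the other time intervals of WT cells, the same list had median log2 differences of 0.25 from undifferentiated to 5 h and -0.10 from 24 h to 48 h, intervals that share libraries with this one.

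**Figure D3:**
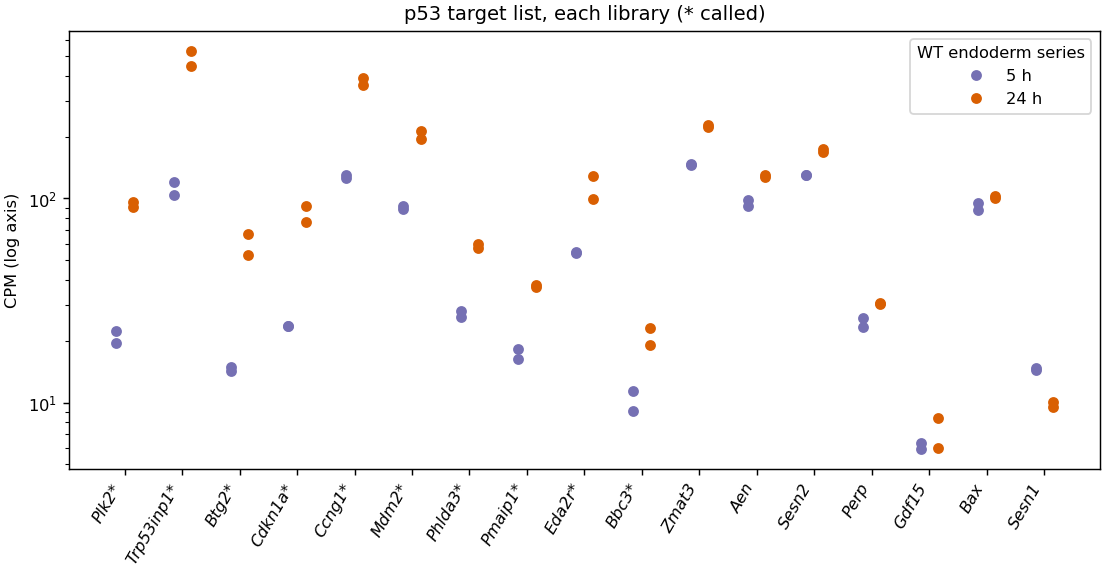
Level in CPM (log axis) of the 17 tested genes of the p53 target list in each WT library of the endoderm series, with the 2 libraries at 5 h in purple and the 2 at 24 h in orange. Genes are ordered by log2 fold change, and asterisks mark the 10 called genes. The 24 h points lie above the 5 h points for all called genes, as in every gene called higher, and Sesn1, at the right, has the opposite order. Over all genes tested, the libraries of the 2 times did not overlap in 62.0%.

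The calls among cell cycle genes fell on those of G1. None of the 22 tested genes of S and G2/M phase was called, although 21 had a negative log2 fold change and the median was -0.40. Of these, Mcm4 (-0.75) and Mcm6 (-0.62), 2 subunits of the replicative helicase, had an adjusted p under 0.001 with less than the fold limit. The summed level of all 22 genes was 5995 and 6008 CPM at 5 h and 4632 and 4766 CPM at 24 h. Among G1 cyclins and CDK inhibitors, 1 of 15 rose (Cdkn1a, above) and 3 fell, against 2.5% of all genes called. Cdkn1c, an imprinted gene for the CDK inhibitor p57, fell from 36.5 and 37.0 CPM to 7.92 and 10.5 CPM (log2 fold change -1.99 ± 0.15, adjusted p = 9.8e-09). Ccnd3, which encodes a D-type cyclin, fell from 187 and 191 CPM to 82.4 and 70.6 CPM (log2 fold change -1.30 ± 0.16, adjusted p = 7.7e-06). Its paralog Ccnd2 fell from 13.0 and 12.6 CPM to 5.23 and 5.17 CPM (log2 fold change -1.29 ± 0.21, adjusted p = 1.7e-04). The inhibitors thus moved in both directions, Cdkn1a up and Cdkn1c down. Cdkn1c and Ccnd3 kept their calls when any 1 of the 4 libraries was left out. Ccnd2 lost its call without any 1 of the 4 libraries (adjusted p up to 0.0049).

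Most pluripotency genes did not pass the threshold. Of 20 naive pluripotency genes, 1 was called, and of 11 core pluripotency genes none, against 2.5% of all genes. Their median log2 fold changes were -0.20 and -0.37. Klf4, a Krüppel-like factor of the naive state, fell from 132 and 134 CPM to 68.9 and 61.3 CPM (log2 fold change -1.03 ± 0.16, adjusted p = 1.5e-04) and stood at 8.49 and 14.0 CPM at 48 h. Zfp42 (Rex1) had 373 and 376 CPM at 5 h and 312 and 316 CPM at 24 h (adjusted p = 0.11), and Nanog had 250.3 and 256 CPM at 5 h and 226 and 238 CPM at 24 h (adjusted p = 0.51). Esrrb, an orphan nuclear receptor of the naive state, had 546 and 541 CPM at 5 h and 433 and 424 CPM at 24 h (adjusted p = 0.15). For all 3 the 24 h libraries were lower than the 5 h libraries, with log2 fold changes of -0.25, -0.13, and -0.34.

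Pou5f1 (Oct4) had 771 and 808 CPM at 5 h and 600.3 and 591 CPM at 24 h (log2 fold change -0.41, adjusted p = 0.022), and Sox2 had 170.2 and 184 CPM at 5 h and 221 and 227 CPM at 24 h (log2 fold change 0.34, adjusted p = 0.062). Among formative epiblast genes 1 of 14 rose, Otx2 (above), and 1 fell, Dnmt3b, against 2.5% of all genes called. Dnmt3b, which encodes a de novo DNA methyltransferase, went from 163 and 155 CPM to 78.2 and 79.2 CPM (log2 fold change -1.01 ± 0.15, adjusted p = 8.9e-05) and stood at 633 and 483 CPM at 48 h. Of 9 genes of DNA methylation and demethylation, 9 had a negative log2 fold change. Dnmt3b and Tet2 were the 2 that fell by the threshold, against 0.737% of all genes. Tet2, which encodes a dioxygenase that oxidizes methylcytosine, went from 411 and 406 CPM to 167 and 153 CPM (log2 fold change -1.35 ± 0.10, adjusted p = 1.2e-08). No PRC2 subunit gene was called, of 13 tested (median -0.20). Jarid2 passed the p threshold only (log2 fold change -0.82 ± 0.11, adjusted p = 2.5e-05). Ezh2, the catalytic subunit, had 139 and 137 CPM at 5 h and 98.5 and 105 CPM at 24 h (adjusted p = 0.012), and Mtf2 had a log2 fold change of -0.20 (adjusted p = 0.21). Tet2 kept its call when any 1 of the 4 libraries was left out. Klf4 lost its call without any 1 of the 4 libraries (adjusted p up to 0.0073, log2 fold change down to -0.94). Dnmt3b lost its call without any 1 of the 4 libraries (adjusted p up to 0.0028, log2 fold change down to -0.98). Klf4 also lost its call on the 8 WT libraries (adjusted p = 0.0032), and Dnmt3b, which lies at the fold limit, lost it without a filter on low counts.

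Matrix genes moved in both directions, with 2 of 18 tested higher and 3 lower, against 2.5% of all genes called (median log2 fold change 0.10). Fn1, the fibronectin gene, went from 495 and 509 CPM to 1033 and 975 CPM (log2 fold change 1.00 ± 0.13, adjusted p = 1.3e-05), and Serpinh1, which encodes the collagen chaperone HSP47, went from 36.8 and 39.5 CPM to 104 and 91.9 CPM (log2 fold change 1.36 ± 0.14, adjusted p = 7.5e-07). The 3 that fell are genes of the basement membrane or of collagen binding. Sparc, the osteonectin gene, went from 134 and 131 CPM to 63.4 and 60.7 CPM (log2 fold change -1.10 ± 0.16, adjusted p = 6.9e-05). Lama1, a laminin gene, went from 164 and 156 CPM to 78.8 and 74.8 CPM (log2 fold change -1.06 ± 0.14, adjusted p = 1.7e-05), and Col4a1, a collagen IV gene, went from 69.0 and 75.5 CPM to 36.7 and 33.8 CPM (log2 fold change -1.04 ± 0.16, adjusted p = 7.9e-05). Fn1 lies at the fold limit, and its call was lost with DESeq2, RLE scaling, and the replicate numbers as a block, with log2 fold changes of 0.99, 0.99, and 1.00. Serpinh1 kept its call when any 1 of the 4 libraries was left out. Fn1 lost its call without 5 h replicate 1 or 24 h replicate 1 (log2 fold change down to 0.97). Sparc lost its call without 5 h replicate 1, 24 h replicate 1, or 24 h replicate 2 (adjusted p up to 0.0029). Lama1 lost its call without 24 h replicate 2 (adjusted p = 0.001). Col4a1 lost its call without 5 h replicate 2, 24 h replicate 1, or 24 h replicate 2 (adjusted p up to 0.0038, log2 fold change down to -0.95).

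Of genes for the epithelial to mesenchymal transition, 2 of 21 rose (Fn1 and Cldn6) and none fell, against 2.5% of all genes called. Cldn6, a claudin of tight junctions in embryonic epithelia, went from 5.17 and 5.53 CPM to 16.3 and 12.2 CPM (log2 fold change 1.41 ± 0.22, adjusted p = 1.2e-04). Cdh1 (E-cadherin) had 318 and 321 CPM at 5 h and 269.7 and 263 CPM at 24 h (log2 fold change -0.26, adjusted p = 0.17), and Cdh2 (N-cadherin), the gene that replaces it in streak cells, had 2.62 and 3.02 CPM at 5 h and 6.23 and 5.43 CPM at 24 h and missed the threshold (log2 fold change 1.05, adjusted p = 0.0041). Of 38 Hox genes, 33 were under 1 CPM in all 4 libraries. Of 10 tested, Hoxc13 alone rose, against 1.76% of all genes called higher. It went from 1.39 and 1.09 CPM to 7.34 and 6.13 CPM (log2 fold change 2.43 ± 0.36, adjusted p = 6.5e-05). Cldn6 and Hoxc13 lost their calls without 5 h replicate 1, 5 h replicate 2, or 24 h replicate 1 (adjusted p up to 0.0047 and 0.0036, respectively).

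Of the metabolic and stress lists, those of glycolysis and hypoxia and of the amino acid response held calls, against 2.5% of all genes called. In glycolysis and hypoxia, 1 of 24 rose and 2 fell. Egln3, an oxygen-sensing prolyl hydroxylase gene, rose from 3.63 and 3.69 CPM to 8.94 and 7.41 CPM (log2 fold change 1.16 ± 0.19, adjusted p = 2.5e-04). Ldha, the lactate dehydrogenase gene, fell from 404 and 419 CPM to 197 and 199 CPM (log2 fold change -1.06 ± 0.11, adjusted p = 5.6e-07), and Ndrg1, a stress-response gene, fell from 8.35 and 7.82 CPM to 2.40 and 1.85 CPM (log2 fold change -1.93 ± 0.28, adjusted p = 5.2e-05). Undifferentiated cells had 1127 and 1081 CPM of Ldha. In the amino acid response, 2 of 20 rose and 1 fell. Ddit4, which encodes an inhibitor of mTORC1, rose from 11.0 and 11.2 CPM to 32.6 and 29.4 CPM (log2 fold change 1.48 ± 0.20, adjusted p = 2.3e-05). Atf5, a stress-induced transcription factor gene, rose from 14.1 and 14.1 CPM to 36.8 and 38.5 CPM (log2 fold change 1.42 ± 0.20, adjusted p = 2.9e-05). Chac1, which degrades glutathione, fell from 32.4 and 35.6 CPM to 13.7 and 15.5 CPM (log2 fold change -1.22 ± 0.24, adjusted p = 9.8e-04), and so the members of this list did not move one way. No gene of sterol synthesis (20 tested, median 0.37) and none of the immediate early genes (16 tested, median 0.21) was called. Ldha kept its call when any 1 of the 4 libraries was left out. Egln3 lost its call without 5 h replicate 1, 5 h replicate 2, or 24 h replicate 1 (adjusted p up to 0.0068). Ndrg1 lost its call without 5 h replicate 1 or 24 h replicate 2 (adjusted p up to 0.0034). Ddit4 lost its call without 5 h replicate 1 (adjusted p = 0.0014). Atf5 lost its call without 5 h replicate 1 or 5 h replicate 2 (adjusted p up to 0.0015). Chac1 lost its call without any 1 of the 4 libraries (adjusted p up to 0.019).

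**Figure D4:**
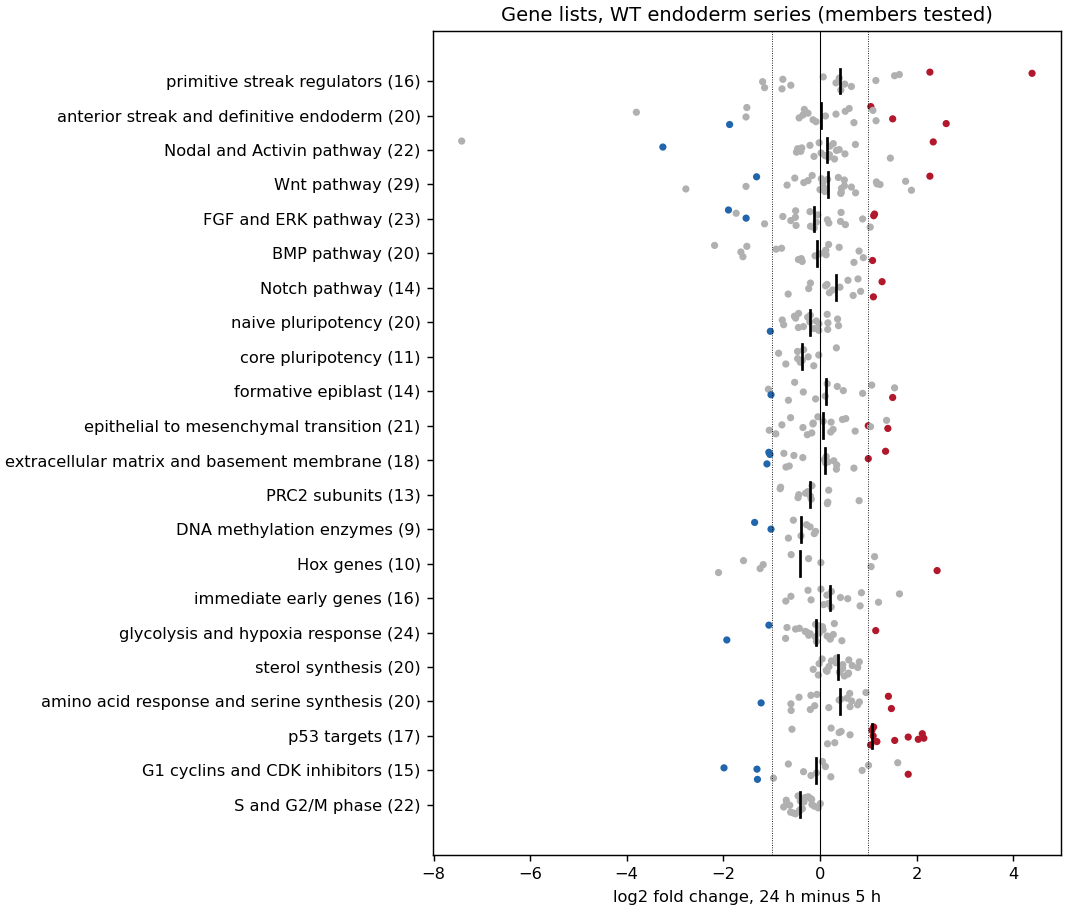
Log2 fold change at 24 h against 5 h in the WT endoderm series for each tested member of 22 gene lists (number tested in parentheses), with called genes in red (higher) or blue (lower), other members in gray, and the list median as a black bar. Dotted lines mark a log2 fold change of 1 in either direction. The median of the p53 target list lies at 1.08, and the other 21 medians lie between -0.42 and 0.42.

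Among all genes, the largest rises with at least 5 CPM included several with no role in the lists. Gm6361, a processed pseudogene, had 0 and 0 CPM at 5 h and 7.68 and 7.97 CPM at 24 h, which is at least 32.5-fold higher than the level of 3 counts per 5 h library. It also had 9.34 and 11.6 CPM in undifferentiated cells and 8.92 and 0 CPM at 48 h. Its reads may be shared with a parent gene, so its values are uncertain. Acot1, an acyl-CoA thioesterase gene, went from 2.83 and 2.83 CPM to 18.3 and 17.5 CPM (log2 fold change 2.65 ± 0.23, adjusted p = 8.9e-08), and its reads may likewise be shared with near-identical paralogs. Fras1, which encodes a basement membrane protein, went from 1.00 and 1.68 CPM to 7.41 and 8.43 CPM (log2 fold change 2.57 ± 0.33, adjusted p = 1.3e-05). Vgf, which encodes a neuropeptide precursor, went from 0.926 and 0.838 CPM to 5.52 and 4.79 CPM (log2 fold change 2.53 ± 0.36, adjusted p = 3.8e-05). Platr13, a noncoding RNA named for its link to pluripotency, went from 3.29 and 4.44 CPM to 20.8 and 20.2 CPM (log2 fold change 2.40 ± 0.17, adjusted p = 3.9e-09). Sec14l5 and Macrod1 completed the 12 genes with the largest rises, with log2 fold changes of 2.49 and 2.37, beside T, Trh, Hoxc13, Lefty2, and Sp5. Acot1, Platr13, and Sec14l5 kept their calls when any 1 of the 4 libraries was left out. Fras1 lost its call without 5 h replicate 1 (adjusted p = 0.0015). Vgf and Macrod1 lost their calls without 5 h replicate 1 or 5 h replicate 2 (adjusted p up to 0.002 and 0.0037, respectively). Gm6361 lost its call without any 1 of the 4 libraries (adjusted p up to 0.0098).

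The largest falls included genes of diverse function. Khdc3 (Filia), a gene of oocytes and embryonic stem cells that protects genome stability, went from 11.8 and 10.5 CPM to 1.31 and 1.47 CPM (log2 fold change -2.99 ± 0.25, adjusted p = 4.5e-08). Myo1f, an unconventional myosin gene, went from 7.49 and 7.37 CPM to 0.727 and 0.447 CPM (log2 fold change -3.66 ± 0.31, adjusted p = 5.8e-08). In both genes the 24 h libraries were under 1.5 CPM. S100a6, which encodes a calcium-binding protein, went from 20.4 and 20.2 CPM to 4.21 and 3.51 CPM (log2 fold change -2.39 ± 0.19, adjusted p = 2.5e-08). Anxa2, the annexin A2 gene, went from 11.0 and 14.1 CPM to 2.25 and 2.94 CPM (log2 fold change -2.26 ± 0.20, adjusted p = 1.6e-07). Plcd1, a phospholipase C gene, went from 29.4 and 25.0 CPM to 5.52 and 5.81 CPM (log2 fold change -2.26 ± 0.24, adjusted p = 1.5e-06). Gm3373 (-3.98), which has close copies in the genome, Igsf21 (-2.48), Ankrd44 (-2.27), Slc47a1 (-2.22), and Pcsk1n (-2.18) were also among the largest falls by log2 fold change, together with Inhbb. Khdc3, Myo1f, S100a6, Anxa2, Plcd1, and Igsf21 kept their calls when any 1 of the 4 libraries was left out. Gm3373 and Slc47a1 lost their calls without 5 h replicate 1, 5 h replicate 2, or 24 h replicate 2 (adjusted p up to 0.0089 and 0.0078, respectively). Ankrd44 and Pcsk1n lost their calls without 24 h replicate 2 (adjusted p = 0.0018 and 0.002, respectively).

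Lists of markers of other cell types held 1 gene that rose, Tex15 of the germline list, and their calls are read against the 2.5% of all genes called. Of 19 markers of paraxial and lateral mesoderm, 12 were under 1 CPM in all 4 libraries and the sum was 37.5 and 37.6 CPM at 5 h and 26.9 and 24.8 CPM at 24 h. None rose, and Pdgfra fell. Its call was lost without any 1 of the 4 libraries, and in fits of the 4 libraries alone or of the 8 WT libraries. For neural ectoderm the sum was 123 and 115 CPM at 5 h and 41.9 and 38.2 CPM at 24 h, with 10 of 15 under 1 CPM. Of 8 tested, 2 fell, both of them cytoskeletal genes. Tubb3 went from 95.5 and 89.7 CPM to 26.9 and 24.9 CPM (log2 fold change -1.84 ± 0.18, adjusted p = 5.8e-07), and Nes went from 16.5 and 14.4 CPM to 5.16 and 4.41 CPM (log2 fold change -1.70 ± 0.22, adjusted p = 1.9e-05). For primitive and visceral endoderm the sum was 319 and 306 CPM at 5 h and 220.3 and 214 CPM at 24 h, and 4 of 13 tested fell (Cubn, Sox7, Pdgfra, and Lama1). The Sox7 call was lost without 5 h replicate 1, 5 h replicate 2, or 24 h replicate 2. Like that of Pdgfra, it was also lost in fits of the 4 libraries alone or of the 8 WT libraries. The endocytic receptor gene Cubn went from 9.34 and 8.88 CPM to 2.98 and 3.07 CPM (log2 fold change -1.59 ± 0.23, adjusted p = 4.9e-05), while Afp, Ttr, and Apoa1 had no count in the 4 libraries.

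No tested marker of trophoblast (8), 2-cell-like cells (6), or fibroblasts (3) was called. The summed level of trophoblast markers was 22.9 and 20.8 CPM at 5 h and 17.7 and 19.3 CPM at 24 h. For 2-cell-like cells it was 4.03 and 6.24 CPM at 5 h and 3.12 and 2.59 CPM at 24 h, and for fibroblasts 23.5 and 22.5 CPM at 5 h and 25.4 and 23.2 CPM at 24 h. In the germline list Tex15, a gene of piRNA-guided silencing, rose from 13.7 and 12.1 CPM to 41.6 and 47.0 CPM (log2 fold change 1.78 ± 0.19, adjusted p = 9.8e-07). Mael, a gene of the same pathway, fell from 14.2 and 16.6 CPM to 6.98 and 5.56 CPM (log2 fold change -1.30 ± 0.19, adjusted p = 5.0e-05), while the sum of the list was 101 and 102 CPM at 5 h and 107 and 111 CPM at 24 h. The part of such cells in the results above was not tested. Tubb3 and Tex15 kept their calls when any 1 of the 4 libraries was left out. Nes lost its call without 24 h replicate 2 (adjusted p = 0.0013). Cubn lost its call without 5 h replicate 1, 24 h replicate 1, or 24 h replicate 2 (adjusted p up to 0.0017). Mael lost its call without 5 h replicate 2 or 24 h replicate 2 (adjusted p up to 0.0034).

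To ask which of these changes were particular to the endoderm series, the same interval was read in WT cells of the mesoderm series, in separate libraries. Each medium was used in 1 series only, so medium cannot be told apart from other differences between the 2 series. There 948 of 19601 genes (4.84%) were called, and 390 of the 480 genes called in the endoderm series and tested there, or 81.3%, were called in the same direction. These are 41.2% of the mesoderm calls tested in both series. The sign was the same for 477 of the 480. The median log2 fold change of the genes that rose in the endoderm series was 1.40 in that series and 1.57 in the mesoderm series, and of the genes that fell -1.50 and -1.47. The genes were chosen by their call in 1 of the 2 series, which favors larger values on that side.

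When the 2 changes were tested against each other, 1 gene of 19601 (0.0051%) differed by the threshold, with 1442 genes at an unadjusted p under 0.05 by edgeR and 4 called by DESeq2. This gene was Ppp1r10, which encodes a regulatory subunit of protein phosphatase 1. It had 102 and 104 CPM at 5 h and 82.5 and 86.1 CPM at 24 h in the endoderm series, with no call, and 42.1 and 40.8 CPM at 5 h and 88.9 and 92.1 CPM at 24 h in the mesoderm series, where it rose (log2 difference -1.44 ± 0.17, adjusted p = 2.6e-05, endoderm minus mesoderm). The mesoderm libraries at 5 h were thus the low ones, and without endoderm 24 h replicate 1 the difference was -1.31 and no longer called (adjusted p = 0.0014). T had 0.916 and 1.70 CPM at 5 h and 56.2 and 60.7 CPM at 24 h in the mesoderm series, and its change did not differ by the threshold (log2 difference -1.14 ± 0.56, adjusted p = 0.69), nor did those of Lefty2 (log2 difference -0.18 ± 0.31, adjusted p = 1) and Trh (log2 difference -0.04 ± 0.33, adjusted p = 1). On the p53 list 5 of 17 genes rose in the mesoderm series, and none of the 17 differed in its change by the threshold.

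In Mtf2 null cells, which lack a subunit that brings PRC2 to CpG islands, 524 genes (2.72%) were called over the same interval. Of the 481 genes called in WT cells, 200 (41.6%) were called in the same direction, 38.2% of the Mtf2 null calls, and 457 had the same sign. The medians over the genes that rose in WT cells were 1.40 in WT and 1.05 in Mtf2 null cells, and over those that fell -1.50 and -0.85. Here too the genes were chosen by their call in WT cells, which favors larger values in WT. A test of the difference between the 2 changes called 12 of 19261 genes (0.0623%), 6 in each direction, with 2542 at an unadjusted p under 0.05. In this test the loss of Mtf2 and the cell line cannot be told apart.

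Among the 6 with a lower change in Mtf2 null cells was Plk2 of the p53 list, with 66.6 and 57.6 CPM at 5 h and 100.1 and 99.6 CPM at 24 h (log2 difference -1.47 ± 0.17, adjusted p = 2.3e-04, Mtf2 null minus WT). Its level at 5 h was higher than in WT and its level at 24 h was close to WT, and 3 of the 17 genes of this list rose in Mtf2 null cells. Epha1, an ephrin receptor gene, had 3.24 and 3.26 CPM at 5 h and 14.7 and 12.1 CPM at 24 h in WT and 21.7 and 19.9 CPM at 5 h and 18.6 and 19.5 CPM at 24 h in Mtf2 null cells (log2 difference -2.16 ± 0.26, adjusted p = 2.3e-04). Ptk2b, which encodes a kinase related to focal adhesion kinase, Cachd1, and Upp1 had log2 differences of -1.65, -1.45, and -1.36. The sixth was Enpp2, the autotaxin gene, with a log2 difference of -4.06 and group means under 5 CPM. It and Adap1, given below, fall outside the rule for named genes and were added after their values were seen.

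Among the 6 with a higher change in Mtf2 null cells was Gata6, with 9.16 and 8.11 CPM at 5 h and 13.3 and 11.8 CPM at 24 h, against a fall in WT (log2 difference 2.40 ± 0.33, adjusted p = 8.0e-04). Cubn, a marker of visceral endoderm, had 87.3 and 88.1 CPM at 5 h and 128 and 108 CPM at 24 h (log2 difference 2.02 ± 0.27, adjusted p = 7.9e-04), and in both genes all 4 Mtf2 null libraries lay above all 4 WT libraries. Cnn2, Mn1, Itga9, and Adap1 had log2 differences of 2.30, 2.15, 1.68, and 1.55. T had 1.23 and 0.645 CPM at 5 h and 3.60 and 3.69 CPM at 24 h in Mtf2 null cells, and the difference of its change missed the threshold (log2 difference -2.44 ± 0.56, adjusted p = 0.028), as did that of Otx2 (log2 difference -3.27 ± 0.49, adjusted p = 0.0016), which had 1.70 and 2.58 CPM at 5 h and 0.646 and 0.603 CPM at 24 h. All 12 calls of a difference were lost when any 1 of the 4 WT libraries was left out.

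In the libraries labelled Jarid2 null, whose Jarid2 level was close to that of WT (above), 718 genes (3.73%) were called over the interval. Of the 481 genes called in WT cells, 402 (83.6%) were called in the same direction, 56.0% of the calls in those libraries, and all 481 had the same sign. T had 1.64 and 1.66 CPM at 5 h and 23.6 and 28.2 CPM at 24 h, Lefty2 had 98.4 and 92.1 CPM at 5 h and 389 and 374 CPM at 24 h, and Inhbb had 33.8 and 32.5 CPM at 5 h and 3.10 and 2.97 CPM at 24 h. The test of the difference called 0 of 19261 genes (0.0%) by edgeR and 0 by DESeq2, with 693 at an unadjusted p under 0.05, and 10 of 17 p53 list genes rose.

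**Figure D5:**
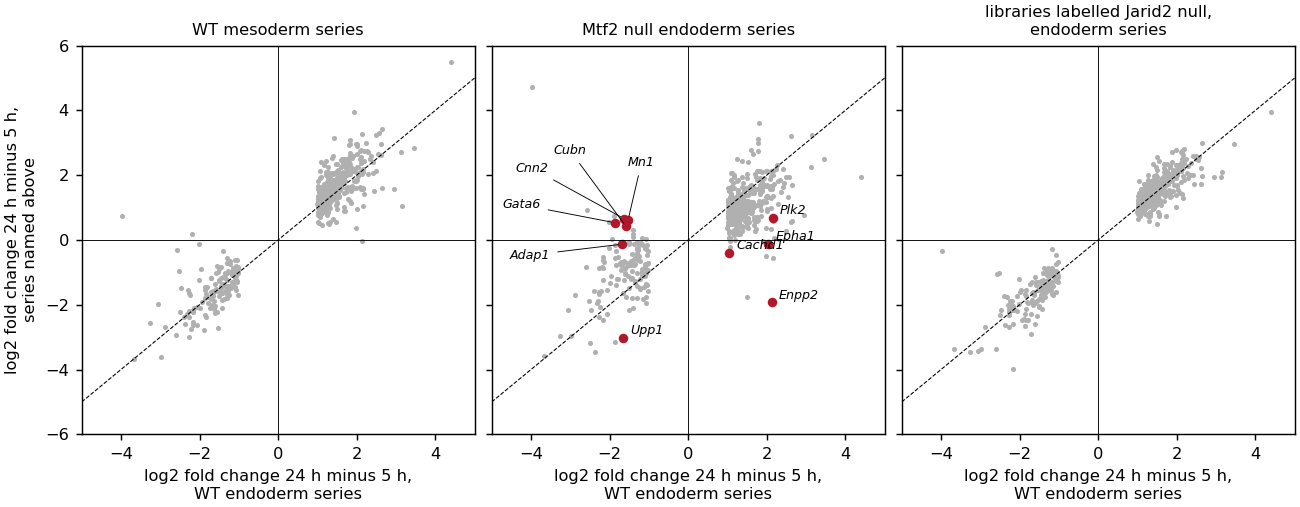
Log2 fold change at 24 h against 5 h of the genes called in the WT endoderm series (horizontal axis) and of the same genes in the WT mesoderm series, the Mtf2 null endoderm series, and the libraries labelled Jarid2 null (vertical axes), with equality dashed. Genes with a log2 fold change of 6 or more in size or not tested in a series are left out, and genes whose change differed by the threshold are red and named. The points follow the dashed line in the panels for the WT mesoderm series and for Jarid2 null, and for Mtf2 null they are spread more widely, with Gata6, Cnn2, Mn1, and Cubn falling in WT and above 0 in Mtf2 null cells.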

How the data were processed

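RNA of monolayer cultures was depleted of ribosomal RNA and sequenced in pairs on a NextSeq. The authors deposited estimated counts per gene (Salmon, on GRCm38; version, annotation release, and use of strand are not given in the sources used here), and 73.1% of the values were whole numbers. The labels also list Bowtie2, HTSeq, and DESeq2. The counts of the endoderm table (24 libraries) were rounded and fitted together by group in edgeR 4.0.16 (R 4.3.3) with TMM scaling, the default expression filter, and the quasi-likelihood test. Adjusted p-values are Benjamini-Hochberg over all genes tested. A gene was called at an adjusted p under 0.001 with a log2 fold change above 1 in size. CPM uses TMM library sizes, of the endoderm fit for the endoderm series and of the joint fit of both series for the mesoderm series. Changes were compared between genotypes by an interaction term, and between the endoderm and mesoderm series in a joint fit of both tables.

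The steps were tested on simulated data. Genes were named by a rule: a set of lineage and pluripotency genes, in each list the 4 called genes with the largest change at 5 CPM or more, the 12 largest changes in each direction, and the 5 largest differences in each direction between series or genotypes. Other list members were named after their values were seen. Some results are not reported here. Members, gene lists, and tests were chosen with earlier results of these data known. Promoters came from RefSeq (GRCm38.p6). Alternatives were DESeq2 1.42.0, RLE scaling, no filter, a replicate block, fewer libraries, each replicate left out, and other thresholds. At 3 counts the limit was 0.191 to 0.251 CPM per library. The 2 libraries of a group differed by 6.36 (5 h) and 7.60 (24 h) times the squared difference that counting noise gives, and so were not taken as copies of 1 library. That spread may still be technical.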

Additional observations from a re-analysis of the deposited data

Results flagged for a closer look

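Changes from 5 h to 24 h that differed between series or genotypes in a test of the difference itself are given here. Between WT cells of the 2 series it was Ppp1r10, with a log2 difference of -1.44 (endoderm minus mesoderm). Between Mtf2 null and WT cells of the endoderm series (Mtf2 null minus WT) they were Gata6 (2.40), Cnn2 (2.30), Mn1 (2.15), Cubn (2.02), and Itga9 (1.68), whose changes were higher in Mtf2 null cells. Epha1 (-2.16), Ptk2b (-1.65), Plk2 (-1.47), Cachd1 (-1.45), and Upp1 (-1.36) had lower changes there. The test also called Adap1 (1.55) and Enpp2 (-4.06), which fall outside the rule for named genes. In Upp1, a uridine phosphorylase gene, the level was lower at 24 h in both genotypes, with 54.4 and 58.5 CPM at 5 h and 17.7 and 18.0 CPM at 24 h in WT cells and 92.5 and 92.4 CPM at 5 h and 11.2 and 11.6 CPM at 24 h in Mtf2 null cells.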

How the results depend on the processing

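The 481 calls became 316 in a fit of the 8 WT libraries of the endoderm series, 3558 at an adjusted p under 0.05 with no fold limit, and 83 with a log2 fold change above 2, and they ranged from 228 to 302 with 1 of the 4 libraries left out. DESeq2, RLE scaling, no filter on low counts, and the 4 libraries alone gave 480, 480, 709, and 456. The 1 call of a difference from the mesoderm series became 4 with DESeq2, 2 with RLE scaling, 55 without a filter, and 24 at an adjusted p under 0.05, and 0 to 1 with 1 of the 4 WT endoderm libraries left out. The 12 calls of a difference for Mtf2 null cells became 45, 15, 176, and 268 under these settings and 0 with any 1 of the 4 WT libraries left out, and the 0 calls for the libraries labelled Jarid2 null became 52 without a filter. With the replicate number as a block, the replicate block gave 480 calls, 2 differences from the mesoderm series, and 12 for Mtf2 null cells. It took the call from Fn1 and from the Gata6 difference (adjusted p = 0.0011). Libraries with the same number did not deviate together (correlation 0.048 between WT 5 h and 24 h, and -0.40 to 0.46, median 0.065, over 66 pairs of groups), so the numbers were not taken to pair libraries. Of 102 results for single genes, those called kept their direction, and 54 kept their side of the threshold, in every alternative that tested them. Some genes with low counts were not tested in every alternative. Differences between series or genotypes were not fitted on the 4 libraries alone or on the 8 WT libraries. The sign turned in 3 genes that were not called: Sox17 (0.41 without 5 h replicate 2), Cxcr4 (-0.18 without 24 h replicate 1), and Fgf5 (-0.14 without 24 h replicate 2). Foxa2 was called without the filter (log2 fold change -3.79). The causes were not tested. Genes under about 1 CPM at both times rest on few counts, which limits what can be detected there at this depth.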
